A study of Drosophila melanogaster with 48 samples.

Results

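The UDP-glycosyltransferase family of Drosophila melanogaster comprised 35 of the 17490 gene rows measured here, taken as every protein-coding gene whose FlyBase symbol is Ugt followed by a digit. The symbols encode relatedness, with a number for the family, a letter for the subfamily and a last digit for the gene. RNA was sequenced after ribosomal RNA depletion from brains of male and female flies of 4 genotypes at week 0 and week 3, with 20 brains in each of 48 samples. The genotypes were NAGLU KO, W422X, Y160C and WG2, and each combination of genotype, sex and age had 3 replicate samples. The labels name no NAGLU change for WG2, which served as the control, but they do not say whether the mutants were made in that line. A difference peculiar to the WG2 line would therefore appear in every mutant comparison. Nor do they tell if the replicates came from separate cultures. The p-values thus reflect how much samples of pooled brains varied, which may be technical. The fly gene Naglu had a level of 24.7 ± 3.39 CPM (read counts scaled to a common library size, SD, n = 12) in WG2. It had 2.10 ± 0.79 in KO, 6.66 ± 1.51 in W422X and 21.2 ± 2.63 in Y160C (n = 12 each). In these bulk samples, fewer cells of a type and less RNA per cell cannot be told apart.

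Ugt enzymes sit in the membrane of the endoplasmic reticulum and transfer a sugar from a UDP-sugar donor to small, mostly fat-soluble molecules, which makes these more soluble. Insect enzymes mainly use UDP-glucose, whereas the vertebrate enzymes are best known for using UDP-glucuronic acid. In insects the family is known for handling plant toxins, insecticides, pigments, hormones and odorants, often after oxidation by cytochrome P450 enzymes and before export by ABC transporters. NAGLU is the lysosomal enzyme that removes alpha-linked N-acetylglucosamine from heparan sulfate, and its loss in humans causes mucopolysaccharidosis IIIB. The endogenous substrates of most of the fly enzymes are not described here.

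Most of the genes lay in compact tandem arrays. By the BDGP6.54 annotation, 11 were on chromosome arm 2L, 5 on 2R, 2 on 3L and 17 on 3R, and 22 of them fell into 6 clusters in which neighbours were at most 10000 bases apart. The largest cluster, at 3R:11151026-11177910, held 9 genes, among them Ugt35B1, Ugt35A1, Ugt302C1 and Ugt303A1. Ugt36F1, Ugt36D1 and Ugt36E1 stood side by side on the plus strand at 2L:18819344-18829059, with 53 bases between Ugt36D1 and Ugt36E1. Ugt49B1 and Ugt49C1 formed a minus-strand pair at 2R:21212880-21217779, 462 bases apart.

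A set of 11 of the 48 libraries was marked as high-background, and leaving it out was chosen after seeing the data. The summed CPM of 3464 genes that averaged under 0.5 CPM, none of them a Ugt gene, was at most 917 (median 290) in 37 libraries. In the other 11, those over 3 times the median of all libraries, it was between 1045 and 4573 (median 2333), without a clear gap between the sets. Of these high-background libraries, 9 were from week 3 and 2 from week 0, 5 were KO, 4 Y160C, 1 W422X and 1 WG2, and 6 were female and 5 male. For the Ugt genes, results are therefore given with and without them where they differ. Changes in neighbours, markers and companion genes outside the family are given with all 48 libraries only. Total counts ran from 8690199 to 55801160 per library, with a median of 19159445.5, and 5 neuronal markers summed to between 5909 and 11801 CPM in every library, as the label brain implies. The median of this sum was 6309 CPM in the 11 high-background libraries and 9530 CPM in the other 37.

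Of the 35 genes, 18 had a median of at least 0.5 CPM over the 37 other libraries and are called expressed here. Just inside this limit was Ugt303A1 at 0.60 CPM, and just outside it was Ugt37B1 at 0.33. Ugt35B1 made up much of the family's RNA. This gene, first described in flies for its strong expression in the antenna, averaged 151 ± 42.4 CPM (SD, n = 48) and held 50.2% of all Ugt CPM. Per kilobase of gene length it reached 90.6 ± 25.4 CPM per kilobase. Next on that scale came Ugt35C1 at 10.8, Ugt316A1 at 9.96, Ugt49C1 at 6.72 and Ugt36D1 at 6.27. Ugt316A1 was the steadiest of these 5 genes, with a coefficient of variation of 11.8% in CPM over the 48 libraries, against 41.7% for Ugt49C1. The 8 antennal markers, which include the odorant receptor partner Orco and odorant-binding proteins, summed to between 6.87 and 72.5 CPM per library (median 12.9), and their part in the level of Ugt35B1 was not tested.

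The remaining 17 genes were near background. Their medians in the 37 libraries lay between 0.05 and 0.33 CPM, and in the 11 high-background libraries between 1.08 and 4.16 CPM. The ratio of the high-background to the other median ran from 4.35 for Ugt304A1 to 59.7 for Ugt303B3, with a median of 14.8. The 18 expressed genes had a median ratio of 1.18, from 0.82 for Ugt35B1 to 4.47 for Ugt50B3, so the classes overlapped slightly. Part of this contrast follows from the definition, as the classes were set by the median in the same 37 libraries. Summed over the 17 genes, the level was 0.76 to 13.4 CPM in the 37 libraries and 13.8 to 54.7 CPM in the other 11, ranges that nearly met without overlapping. All 3 genes of the 303B subfamily and all 3 of 37A were in this group, whereas the 35, 36, 37, 49, 302 and 303 families as a whole had members on both sides of the limit.

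**Figure D1:**
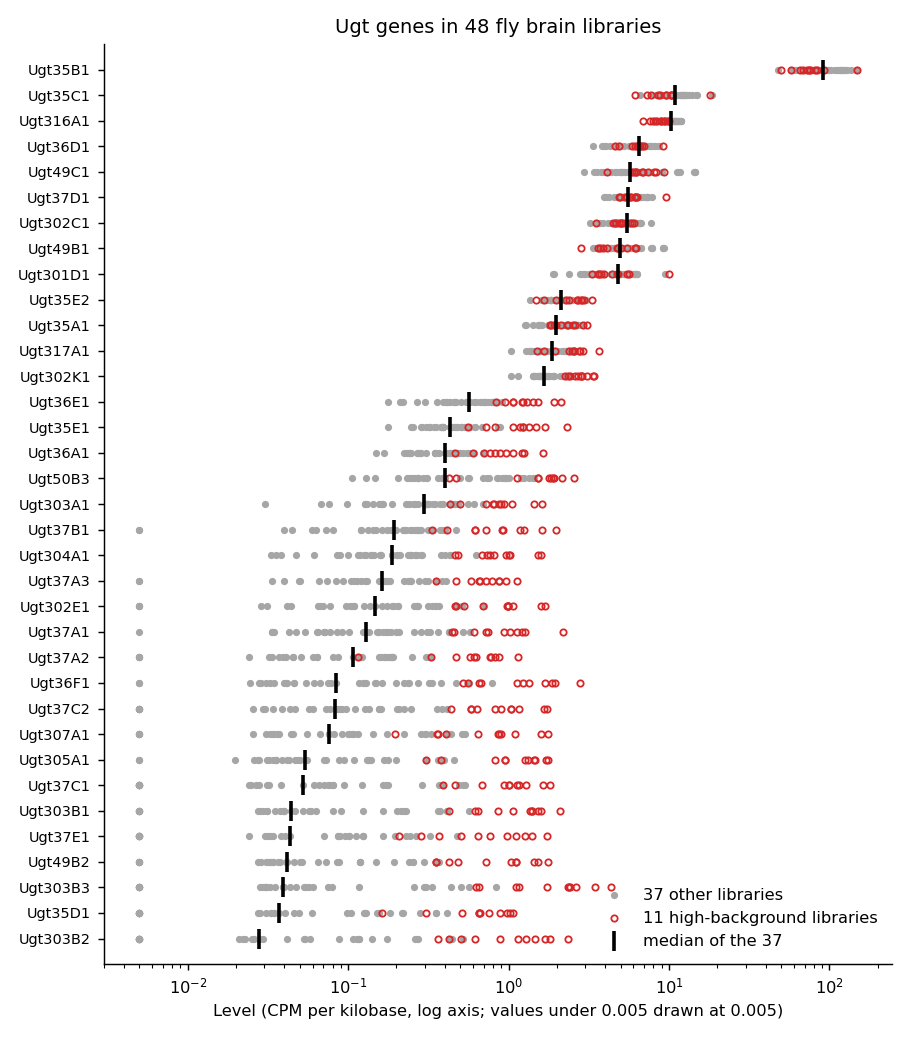
Level of each Ugt gene in every library, in CPM per kilobase of gene length on a log axis, with genes ordered by their median over 37 libraries (black ticks). Grey points are these libraries and open red points the 11 high-background ones. The red points sit among the grey for Ugt35B1 and the other well-expressed genes and to the right of most grey points for the 17 lowest genes.

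Ugt36D1 was higher in all 3 mutants than in WG2. WG2 libraries ranged from 7.59 to 11.9 CPM with a median of 10.5 (n = 12). KO libraries ranged from 11.2 to 20.8 (median 15.6), W422X from 13.2 to 19.8 (median 15.2) and Y160C from 13.4 to 17.8 (median 15.5). The KO male week 3 replicate 2, a high-background library, was the only mutant library below the highest WG2 value, and within each sex and age no mutant library overlapped WG2. Relative to WG2, KO had a log2 fold change of 0.66 ± 0.07 (SE), W422X of 0.62 ± 0.07 and Y160C of 0.62 ± 0.07, with edgeR adjusted p of 2.54e-08, 1.44e-07 and 1.21e-07. The rise was positive in 4 of 4 sex and age strata in each mutant, from 0.46 to 0.81 in KO, from 0.51 to 0.74 in W422X and from 0.49 to 0.83 in Y160C. The 3 comparisons share their WG2 libraries. When the 11 high-background libraries were omitted the values were 0.62, 0.61 and 0.62.

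The mutant comparisons called few other members. edgeR called 2 of 35 Ugt genes in KO, where 0.747% of all 15807 tested genes were called, 2 in W422X (0.373% of all genes) and 1 in Y160C (0.310%). In KO the second gene was Ugt36E1, the downstream neighbour of Ugt36D1. It had 0.338 to 2.49 CPM in WG2 (median 0.754) and 0.679 to 3.66 CPM in KO (median 1.57), so the groups overlapped. Its highest value in WG2 came from the single high-background WG2 library. The log2 fold change in KO was 1.16 ± 0.28 (edgeR adjusted p 0.0366), with 0.92 in W422X (adjusted p 0.368) and 0.93 in Y160C (adjusted p 0.341). Without the high-background libraries the KO value was 0.62 (adjusted p 0.364), and the call was also lost when any of 15 of the 48 libraries was left out in turn. With the background index as a covariate, the gene was called in all 3 mutants, at 0.87 in KO (adjusted p 0.00689), 0.98 in W422X (0.00122) and 0.74 in Y160C (0.0433).

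**Figure D2:**
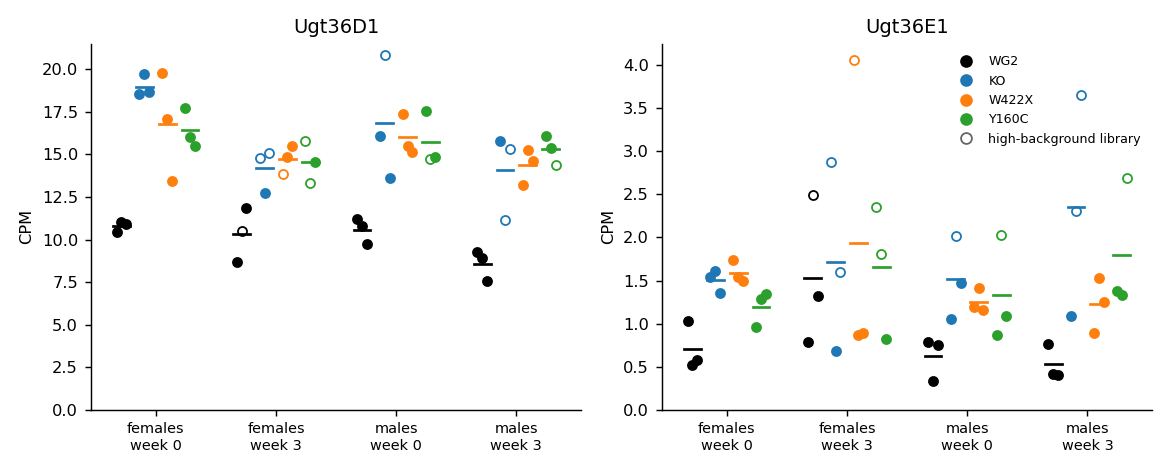
CPM of Ugt36D1 (left) and Ugt36E1 (right) in each library by sex, age and genotype. Points are libraries, open points the high-background ones, and bars the means of 3 libraries. For Ugt36D1 the black WG2 points lie below the mutants in every sex and age, and for Ugt36E1 the open points are among the highest.

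Around Ugt36D1, 25 other genes within 100 kilobases were tested. Besides Ugt36E1, 2 of them were called in KO. CG17597, which overlaps Ugt36E1 on the opposite strand, was higher by 0.65 on the log2 scale in KO (edgeR adjusted p 0.0042). Its value in Y160C was 0.63, also past the threshold (adjusted p 0.00708), and in W422X 0.52 (adjusted p 0.0624). ScpX, a sterol carrier gene, was lower in KO (-0.38, adjusted p 0.0012). No source used here gives the strand setting of the counting, and reads of Ugt36E1 and CG17597 where they overlap cannot be told apart. Ugt36F1, the third gene of the array, was near background and was not called in any mutant.

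Ugt49C1 set W422X apart from WG2 and from the other mutants. WG2 libraries ranged from 8.89 to 27.7 CPM (median 13.4, n = 12), KO from 9.44 to 21.5 (median 11.8), Y160C from 7.32 to 22.1 (median 12.5) and W422X from 5.61 to 14.3 (median 8.05). The W422X libraries were the lowest as a set, although they overlapped every other genotype. The log2 fold change of W422X against WG2 was -0.87 ± 0.10 (edgeR adjusted p 2.91e-07), negative in 4 of 4 strata, from -0.44 in week 0 males to -1.33 in week 3 males. In KO the value was -0.28 ± 0.10, not past the threshold (adjusted p 0.284), and in Y160C -0.23 ± 0.10, likewise (adjusted p 0.606). In week 3 males, however, KO (12.9 to 21.5 CPM) and Y160C (15.8 to 22.1 CPM) also lay below WG2 (26.99 to 27.72 CPM). The direct comparisons between mutants called the same gene. KO was above W422X by 0.59 ± 0.10 (adjusted p 0.000495; 0.747% of all genes called), and W422X was below Y160C (-0.64 ± 0.10, adjusted p 0.000126; 0.443% of all genes). No Ugt gene was called by edgeR between KO and Y160C (0.797% of all genes), where 0 of 35 had an unadjusted p under 0.05 and DESeq2 also called 0.

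The adjacent Ugt49B1 did not share this pattern. Its W422X libraries ranged from 7.16 to 16.1 CPM (median 9.71) and its WG2 libraries from 5.89 to 16.2 CPM (median 9.49), a log2 fold change of 0.16 ± 0.12 (edgeR adjusted p 0.9999). In the KO against W422X comparison, Ugt49B1 leaned the opposite way from Ugt49C1, at -0.46 ± 0.12 (adjusted p 0.0719), and it passed the threshold without the high-background libraries (-0.52, adjusted p 0.0206). Within 100 kilobases of Ugt49C1, 37 other genes were tested, and those called in W422X were both higher. They were Xpd, a TFIIH helicase subunit (0.54, adjusted p 7.39e-07), and CG30392 (0.49, adjusted p 0.000105). Xpd was also higher in Y160C (0.47, adjusted p 2.22e-05).

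**Figure D3:**
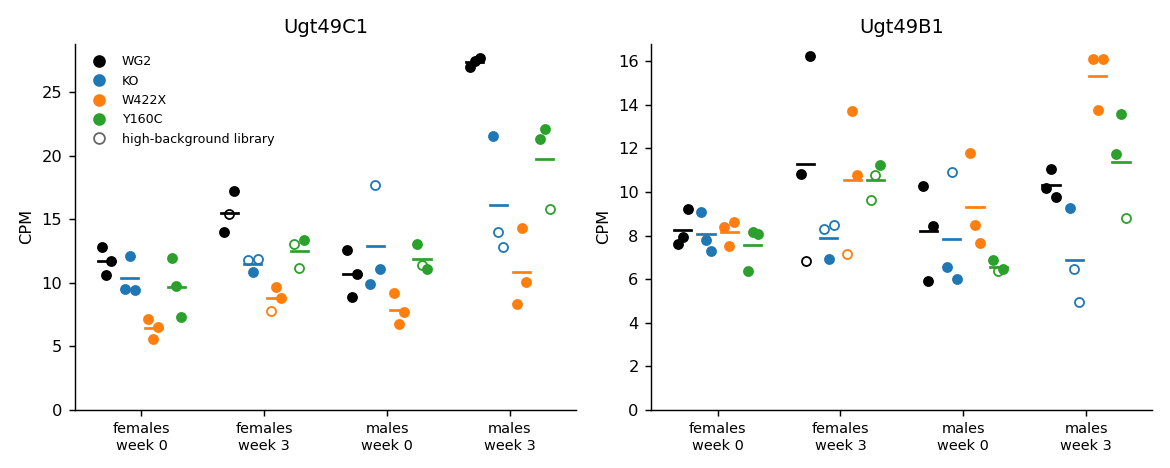
CPM of Ugt49C1 (left) and its neighbour Ugt49B1 (right) in each library by sex, age and genotype, drawn as in the plot of the Ugt36 genes. For Ugt49C1 the orange W422X means are the lowest in each sex and age and the 3 WG2 week 3 males, at 26.99 to 27.72 CPM, are the highest. Ugt49B1 shows no such order.

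The near-background genes were unevenly placed between genotypes, as were the high-background libraries. In KO, with 5 such libraries, 17 of 17 genes had a positive fold change (median log2 1.13), and in Y160C, with 4, again 17 of 17 (median 0.82), against 9 of 17 in W422X (median 0.02). None was called by edgeR, and 4 of 17 in KO, 2 in Y160C and 0 in W422X had an unadjusted p under 0.05. Without the 11 libraries 6 of 17 were positive in KO (median -0.23) and 3 of 17 in Y160C (median -1.07). Part of this fall follows from the definition, as the 11 were chosen for a high level of nearly silent genes.

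Age was the comparison with the most Ugt genes called. The level of Ugt50B3, which belongs to a family found across insects, separated the ages completely. It was 0.351 to 1.87 CPM at week 0 (median 0.940, n = 24) and 2.30 to 8.50 CPM at week 3 (median 4.06, n = 24). The log2 fold change was 2.04 ± 0.16 (edgeR adjusted p 8.53e-13), and it was positive in 8 of 8 genotype and sex strata, from 1.43 to 2.41. The highest values were in high-background libraries, but over the other 37 libraries the ages stayed apart, at no more than 1.87 and no less than 2.30 CPM, with a log2 fold change of 1.77 (adjusted p 5.58e-10). The gene is long, at 2R:5496674-5549543, and overlaps the troponin gene TpnC4.

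Among all 35 genes, edgeR called 21 higher and 1 lower at week 3, while 44.5% of all genes were called for age (26.4% higher and 18.1% lower). The median log2 fold change of all genes in this comparison was itself 0.16, so a rise of that size matches the typical gene. Most of the 21 were not called higher without the high-background libraries, which were chosen for a high level of nearly silent genes. Without them 14 Ugt genes were called, 9 higher and 5 lower, of which 9 were among the first 22 and 1 of these, Ugt303B3, had changed direction. With the background index as a covariate 10 were called. The share of all genes called for age in these alternative fits is not given here, so the counts cannot be set against it. The same 8 genes were called in the same direction in all 3 fits. Of these, 7 were higher at week 3, namely Ugt50B3, Ugt303A1, Ugt49C1, Ugt49B1, Ugt35A1, Ugt302C1 and Ugt37D1, and Ugt36D1 was lower.

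Ugt303A1, at 0.06 to 1.01 CPM at week 0 (median 0.401) and 0.382 to 3.29 CPM at week 3 (median 1.06), rose by 1.55 ± 0.25 on the log2 scale (edgeR adjusted p 3.70e-06). Its groups overlapped, and the value was 1.18 without the high-background libraries. Both members of the 49 pair rose. Ugt49C1 had 5.61 to 17.7 CPM at week 0 (median 10.2) and 7.80 to 27.7 CPM at week 3 (median 13.7), a log2 fold change of 0.53 ± 0.07 (adjusted p 1.21e-07) with 8 of 8 strata positive. Ugt49B1 rose by 0.37 ± 0.09 (adjusted p 0.000824) with 6 of 8 strata positive. Set against the median of all genes these changes were 0.37 and 0.21, or 0.73 and 0.61 when the 11 libraries were omitted.

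The other 3 rises were smaller. Ugt35A1 rose by 0.26, Ugt302C1 by 0.23 and Ugt37D1 by 0.22 (edgeR adjusted p 0.018, 0.0046 and 0.00937). Relative to the median of all genes they were 0.10, 0.07 and 0.06 with all libraries, but 0.32, 0.37 and 0.39 when the 11 were omitted and the median of all genes was -0.06. Each call was lost when any of 17 of the 48 libraries was left out. Ugt36D1 was lower at week 3 by 0.20 ± 0.05 (-0.20, adjusted p 0.00125), negative in 8 of 8 strata. Relative to the median of all genes this was -0.36, or -0.08 when the 11 libraries were omitted. It was not called with the summed glia markers as a covariate (-0.10, adjusted p 0.14). Ugt35B1, the most abundant gene, had a median of 131 CPM at week 0 and 161 CPM at week 3 and was not called with all libraries. Without the 11 it was called higher, by 0.38 (adjusted p 0.00305), as was Ugt316A1, by 0.12 (adjusted p 0.0179). The expressed genes Ugt35E1 (0.77), Ugt36A1 (0.57), Ugt317A1 (0.28) and Ugt302K1 (0.27) were called with all libraries and not without the 11.

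Of the 17 near-background genes, 10 were called higher at week 3 with all libraries, and none was called higher without the 11 or with the covariate. Ugt303B3 is an example: its median was 0.0985 CPM at week 0 and 0.113 CPM at week 3, but its highest week 3 library, the W422X female replicate 1, reached 7.62 CPM. Its log2 fold change was 1.71 (edgeR adjusted p 0.0488) with all libraries and -2.24 without the 11, where it was called lower (adjusted p 0.0248). With all libraries 17 of 17 near-background genes were above 0 for age (median 1.32), and without the 11 libraries 1 of 17 was (median -0.97). Part of this fall follows from the definition. The 11 were chosen for a high level of nearly silent genes, and 9 of them were from week 3. Markers of other cells and tissues also differed with age: 7 of 9 fat body, 6 of 8 haemocyte and 4 of 8 antennal markers were higher at week 3, against 26.4% of all genes, with 1, 1 and 0 lower. Of 10 glia markers 6 were lower and 2 higher, and 5 of 5 neuron markers were lower, against 18.1% of all genes. Photoreceptor markers went both ways, with 3 of 12 higher and 2 lower and a list median of -0.36. These marker counts used all 48 libraries. Summed medians in the 11 high-background libraries against the other 37 were 2187 and 1881 CPM for fat body and 22.7 and 11.7 for antennal markers. They were 324 and 385 CPM for haemocyte, 2792 and 3945 for glia, 6309 and 9530 for neuron and 921 and 1271 for photoreceptor markers. The highest haemocyte sum was 7778 CPM in the 11, in a KO female week 3 library, and 688 CPM in the 37. The part of the background in the marker changes was not tested. Nor was the part of the markers in the changes of the Ugt genes with age, apart from the glia covariate above.

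**Figure D4:**
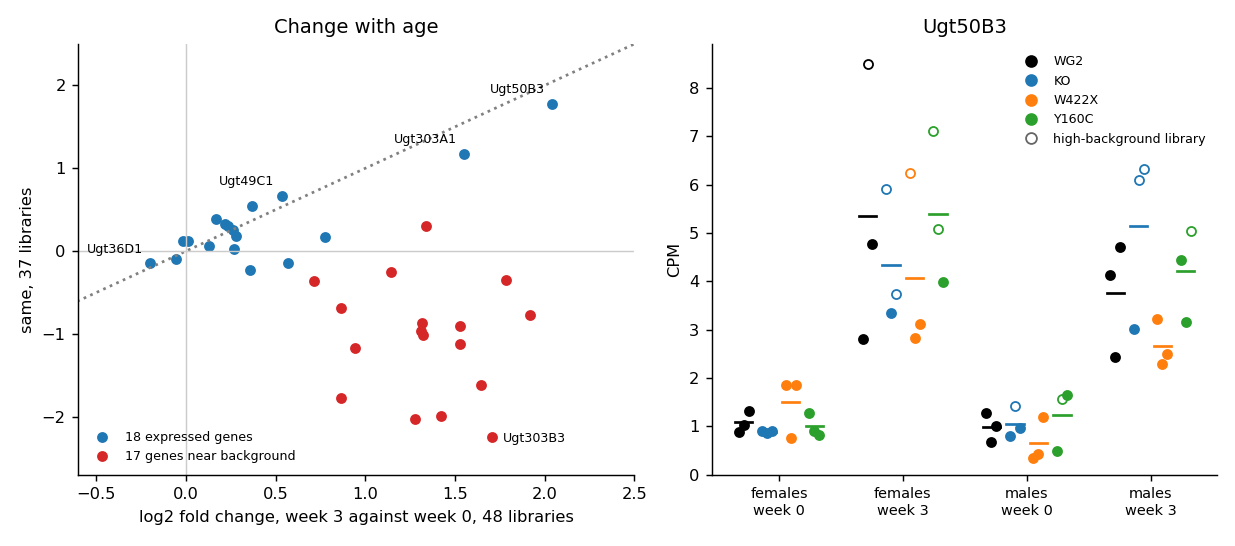
Left, log2 fold change of week 3 against week 0 for the 35 Ugt genes with all 48 libraries (x axis) and without the 11 high-background libraries (y axis), with the line of equality dotted. Most blue expressed genes lie near the line, though Ugt36A1, Ugt35E1, Ugt36E1 and Ugt303A1 lie 0.38 to 0.71 below it, and the red near-background genes fall further below. Right, CPM of Ugt50B3 in each library by sex, age and genotype, with high-background libraries open and means as bars, where every week 3 point lies above every week 0 point.

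Within genotypes, where edgeR called 8.72% of all genes for age in WG2, 17.9% in KO, 7.24% in W422X and 7.55% in Y160C, the rise of Ugt50B3 was called in each, from 1.70 in W422X to 2.28 in KO. Ugt49C1 rose in WG2 (0.88, edgeR adjusted p 5.46e-05), Y160C (0.56, adjusted p 0.00993) and W422X (0.46, adjusted p 0.0451). In WG2 males it went from 12.6, 8.89 and 10.7 CPM at week 0 to 26.99, 27.48 and 27.72 CPM at week 3, without overlap. In KO males it went from 9.89, 17.7 and 11.1 CPM to 21.54, 14.02 and 12.85 CPM, which overlapped. The difference between KO and WG2 in the change with age was -0.64 ± 0.20 (adjusted p 0.38), which did not pass the threshold. edgeR called no Ugt gene for genotype by age in KO (0.215% of all genes), W422X (0%) or Y160C (0.0190%), and none for genotype by sex (0.152%, 0% and 0.00633%). Unadjusted p was under 0.05 for 1, 1 and 0 genes by age and for 0, 6 and 0 genes by sex, and DESeq2 called 0 in all.

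Males had higher levels of 4 of the 35 Ugt genes and lower levels of none, where 10.1% of all genes were called for sex (6.04% higher and 4.10% lower in males). Ugt301D1 had 3.77 to 11.8 CPM in females (median 7.11, n = 24) and 8.75 to 19.8 CPM in males (median 11.1, n = 24), so the sexes overlapped in part. It was higher in males by 0.68 ± 0.10 on the log2 scale (edgeR adjusted p 5.44e-06), in 8 of 8 genotype and age strata. Ugt35B1 had 79.5 to 193 CPM in females (median 126) and 112 to 247 CPM in males (median 168), a difference of 0.39 ± 0.10 (adjusted p 0.00815), also in 8 of 8 strata. Ugt49C1 was higher in males by 0.38 ± 0.07 (adjusted p 0.000169) and Ugt35C1 by 0.27 ± 0.09 (adjusted p 0.0375), each in 7 of 8 strata, and the call of Ugt35C1 was lost when any of 18 libraries was left out.

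Markers of other cells moved with sex as well. Of 8 haemocyte markers 5 were called lower in males (median of the list -0.78), of 9 fat body markers 4 were lower and 1 higher (median -0.89), and 3 of 12 photoreceptor markers were higher (median 0.42). The part of these 3 lists in the sex differences of the Ugt genes was not tested. Of 10 glia markers, 6 were called higher in males, among them the glutamine synthetase Gs2 (0.60) and the glutamate transporter Eaat1 (0.26), and Mdr65, an ABC transporter of the blood-brain barrier glia, was lower (-0.53). Their summed level was 1912 to 4958 CPM in females (median 3405) and 2786 to 7336 CPM in males (median 3984). The 2 libraries with the highest sum, KO male week 0 replicate 2 at 7336 CPM and W422X male week 0 replicate 1 at 7005 CPM, were also the highest 2 for Ugt35B1 (247 and 244 CPM), Ugt35C1 (30.1 and 30.8 CPM) and Ugt301D1 (19.8 and 18.8 CPM). The next highest sum in any library was 5066 CPM.

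Without these 2 libraries Ugt301D1 (0.55, edgeR adjusted p 3.00e-05), Ugt49C1 (0.29, adjusted p 0.000912) and Ugt35B1 (0.26, adjusted p 0.0352) were still called higher in males and Ugt35C1 was not. With the log2 of the glia marker sum as a covariate, Ugt301D1 was the only Ugt gene called higher in males (0.46, adjusted p 0.00231). In that fit Ugt35B1 was 0.03 (adjusted p 0.763), Ugt49C1 0.20 (adjusted p 0.0651) and Ugt35C1 -0.02 (adjusted p 0.91), and Ugt36D1 (-0.18, adjusted p 0.0152) and Ugt302C1 (-0.26, adjusted p 0.00724) were called lower in males. Ugt36D1 was also called lower without the 2 libraries (-0.14, adjusted p 0.0356).

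**Figure D5:**
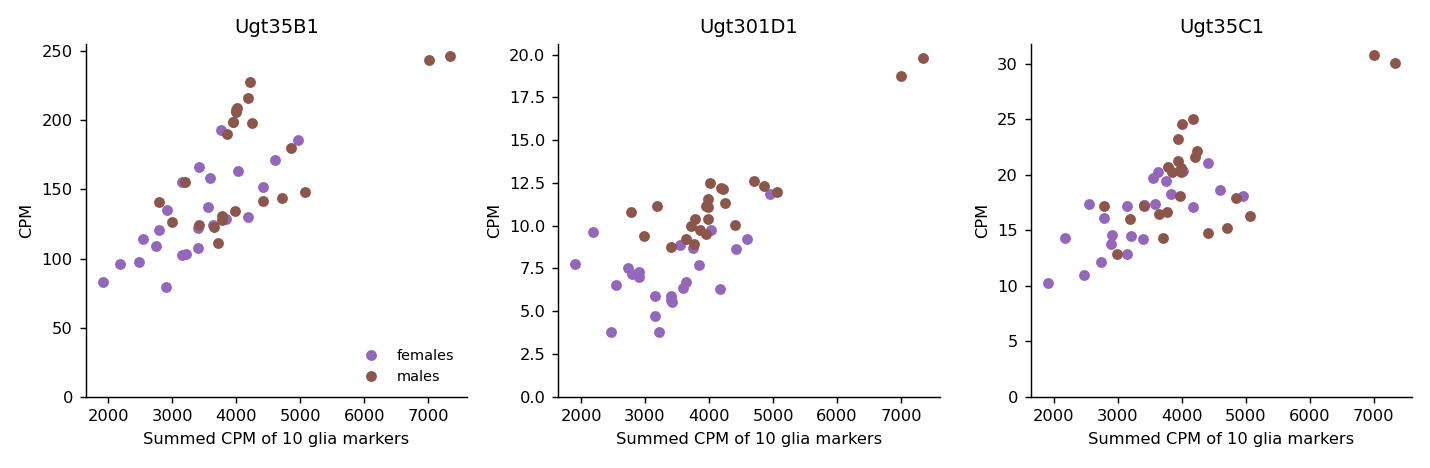
CPM of Ugt35B1, Ugt301D1 and Ugt35C1 in each library against the summed CPM of 10 glia markers, with females and males in different colours. The 2 male libraries at 7005 and 7336 CPM of glia markers are the highest for each of the 3 genes, and for Ugt301D1 the males lie above most females across the range of glia marker sums.

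The change with age differed between the sexes for 13 Ugt genes by edgeR, where 23.4% of all genes were called (7.95% higher and 15.4% lower in males). Of these, 12 were near-background genes. In females all 12 had a positive change with age, from 2.20 to 3.95 on the log2 scale, and in males 11 of 12 had a negative one, from -0.80 to 0.01 over the 12. These 12 were picked by this same difference. Of all 17 near-background genes, 17 were above 0 in females (median 2.99) and 4 in males (median -0.19). The medians of all genes were 0.13 and 0.0009. High-background libraries were unevenly placed here too: 6 of 12 female week 3 libraries were of this kind against 3 of 12 in males. Without the 11 libraries none was called (0.0811% of all genes), and with the background index as a covariate again none (0.133% of all genes); 3 and 1 of 35 then had an unadjusted p under 0.05. Leaving out a single library gave no call at all for 22 of the 48. The remaining gene, Ugt49C1, rose by 0.72 in males and 0.34 in females, a difference of 0.38 ± 0.14 (adjusted p 0.0482), and this call was lost when any of 46 of the 48 libraries was left out.

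Genes that act before or after Ugt enzymes in their pathway were examined beside the family. None of 11 genes of UDP-sugar supply, 5 nucleotide sugar transporters, 17 detoxification P450 genes, 6 xenobiotic sensing genes or 7 conjugate export pumps was called by edgeR in any mutant against WG2, where 0.747% of all genes were called in KO, 0.373% in W422X and 0.310% in Y160C, so few calls could be seen in lists of this size. An unadjusted p under 0.05 was held by 6 of these 46 genes in KO, 2 in W422X and 5 in Y160C. The share of all genes with such a p is not given here, so these counts cannot be set against it. Between mutants, 1 of the 46 was called: Cyp6g2, a P450 gene, was higher in KO than in W422X (2.09, adjusted p 0.0118) and than in Y160C (2.13, adjusted p 0.00763). The age and sex results of these genes were taken from the fit of all 48 libraries only, and 9 of the 11 high-background libraries were from week 3. In those 11, UDP-sugar supply summed to a median of 724 CPM, against 934 in the other 37. The P450 genes had 281 against 308 and the pumps 395 against 474. The part of the background in these changes was not tested. At week 3, 10 of the 17 P450 genes were higher (26.4% of all genes) and 1 lower (18.1% of all genes), with a median of 0.49 against 0.16 for all genes. Cyp6w1 rose by 0.46 (adjusted p 1.62e-05) and Cyp4e3 by 1.81 (adjusted p 2.11e-05). Of the 11 genes of UDP-sugar supply 1 was higher and 4 lower, in all near the 44.5% of all genes called, with a median of -0.11. Gnpnat fell by 0.23 (adjusted p 0.000459) and mmy, the UDP-N-acetylglucosamine pyrophosphorylase, fell by 0.17 (adjusted p 0.011). Of the 7 export pumps 3 rose (median 0.14) and Mdr65 fell by 0.41 (adjusted p 3.60e-05). Among the sensors, cnc, the fly counterpart of Nrf2, rose by 0.16 (adjusted p 0.000198) and the nuclear receptor Hr96 fell by 0.23 (adjusted p 3.07e-05). The nucleotide sugar transporter Efr fell by 0.21 with age (adjusted p 0.00408) and was 0.45 higher in males (adjusted p 5.42e-07). Also higher in males were Cyp6w1 (0.30, adjusted p 0.0117), Cyp6g1 (0.46, adjusted p 0.0427) and Gfat2 of UDP-sugar supply (0.17, adjusted p 0.0451).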

How the data were processed

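Per the labels, each sample held 20 fly brains, frozen at dissection and homogenised, and libraries were made from total RNA after ribosomal RNA depletion with a Tecan kit. The authors deposited raw counts per gene, 1 column per library, beside a gene length in bases. Per the submitters' processing notes Subread was used, and its version, the aligner, genome build, annotation, strand setting and read filters are not given in the sources used here. The table has 0 columns of other samples. Of 17490 gene identifiers, 17288 matched the Ensembl BDGP6.54 annotation, from which positions were taken by identifier. No sequence was used.

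Counts were fitted in R 4.3.3 with edgeR 4.0.16 (glmQLFit with robust=TRUE, glmQLFTest, TMM factors, a mean for each of 16 groups, 32 residual degrees of freedom) on all 48 libraries. filterByExpr (minimum count 10, minimum total 15) kept 15807 genes, all 35 Ugt genes among them, and dropped 1683. Contrasts average over the other factors. Every adjusted p is Benjamini-Hochberg over the genes tested and, unless another tool is named, from edgeR, with calls at 0.05. Counts of genes with an unadjusted p under 0.05 are given without the share of all genes, so they cannot be set against it. The SE is the absolute log2 fold change over the square root of F. CPM uses TMM-scaled totals. Alternatives were RLE factors, no filter, DESeq2 1.42.0, a replicate block, only the compared genotypes, each library left out, and, chosen after seeing the data, leaving out or adjusting for high background or glia marker RNA. The members, gene lists and tests were chosen with earlier results of these data known. Values by group, as single libraries or ranges, are given for some of the genes called in a contrast. The other called genes have fold changes or counts only. Of the companion lists, some of the called genes are named, with fold changes. The fit was tested on simulated counts.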

Additional observations from a re-analysis of the deposited data

Results flagged for a closer look

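The change with age differed between males and females, by the edgeR interaction term, for 13 Ugt genes. The difference in log2 change, males minus females, was 0.38 for Ugt49C1. For the near-background genes it was -2.74 for Ugt307A1, -3.03 for Ugt37C2, -3.79 for Ugt37E1, -3.02 for Ugt36F1, -2.63 for Ugt37A1, -4.45 for Ugt37C1, -2.66 for Ugt37A2, -3.47 for Ugt49B2, -4.27 for Ugt303B3, -3.44 for Ugt303B1, -4.05 for Ugt303B2 and -3.78 for Ugt35D1. High-background libraries made up 6 of 12 female and 3 of 12 male libraries at week 3. None of the 13 was called without the 11 such libraries, where edgeR called 0.0811% of all genes.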

How the results depend on the processing

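Ugt36D1 in the 3 mutants and Ugt49C1 in W422X, against WG2, KO and Y160C, kept their direction and call under every alternative run. The KO count fell from 2 to 1 with only the compared genotypes, without the 11 high-background libraries and without the 2 libraries richest in glia markers, and with the background covariate the W422X count rose from 2 to 3 and the Y160C count from 1 to 2. For age the 22 calls became 14 without the 11 libraries, 10 with the background covariate and 10 with the glia covariate. For age by sex the 13 calls became 8 without a filter, 7 with the glia covariate, and 0 without the 11 libraries, with the background covariate and without the 2 glia-rich libraries. Leaving out each library in turn gave 1 to 2 calls in KO, 2 in W422X, 1 in Y160C, 8 (without Y160C female week 3 replicate 2) to 26 for age, 3 to 4 for sex and 0 to 19 for age by sex. It gave 2 to 14 for the pairs of mutants, the highest without W422X female week 3 replicate 1, and 0 to 0 for the genotype interactions. The median age change of all genes was 0.16, between 0.06 and 0.24 with a library left out and -0.06 without the 11.

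Without the 11 libraries the age change reversed to -0.14 for Ugt36A1, -0.26 for Ugt37B1, -0.87 for Ugt307A1, -0.91 for Ugt37C2, -1.62 for Ugt37E1, -1.01 for Ugt36F1, -0.35 for Ugt305A1, -2.24 for Ugt303B3, -0.78 for Ugt303B2 and -1.12 for Ugt35D1. With the background covariate it reversed to -0.0867 for Ugt307A1, -0.22 for Ugt37C2, -0.44 for Ugt37E1, -0.22 for Ugt36F1 and -0.77 for Ugt303B3, and age by sex to 0.0069 for Ugt37C2. With the glia covariate it reversed to -0.0789 for Ugt36F1 and -0.22 for Ugt303B3, and the sex difference of Ugt35C1 to -0.0186. The cause of these changes was not tested.

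A replicate block gave 2 calls in KO, 2 in W422X, 1 in Y160C, 19 for age, 4 for sex, 10 for age by sex, 0 for both interactions and 2 for the pairs. Libraries with the same replicate number in their titles did not deviate together: 129 of 360 pairs had a correlation over 0.1 (mean -0.01), and 16 of 48 libraries correlated best with their own number. The column names of the deposited counts number some samples differently, and a pairing by those numbers was not tested. Genes under 0.5 CPM rest on few reads, and a change in them is not separable at this depth from the background of the library.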
